A study of Mus musculus with 6 samples.

Results

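Glucose uptake, glycolysis, lactate handling and glycogen metabolism were examined in mouse gastrocnemius muscle through 39 genes, chosen by symbol from the known steps of these pathways, among the 57010 genes of the count matrix. All 39 were detected and passed the filter on low counts. The libraries came from 3 mice homozygous for the Dysfprmd allele on the B6.A-Dysfprmd/GeneJ background, also called BLAJ, and from 3 C57BL/6 mice that were wild type for Dysf. All animals were 3 months old and untreated, and each gave 1 library. The 3 control animals and mutant 3 were male, whereas mutants 1 and 2 were female. The Dysfprmd allele is a spontaneous retrotransposon insertion in Dysf, which encodes dysferlin, a membrane repair protein of muscle fibres, and the deficiency is present in every tissue. In the sentences below, values are given in the order of animals 1, 2 and 3 of a group, as CPM, the read-pair counts of a gene scaled to the normalised size of its library.

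Skeletal muscle takes up glucose through GLUT4, traps it as glucose 6-phosphate by hexokinase, and either stores it as glycogen or splits it to pyruvate in the glycolytic pathway. Fast-twitch fibres, which dominate the gastrocnemius, depend on glycogen breakdown and glycolysis for bursts of work and export lactate, whereas slow fibres oxidise more pyruvate and lactate. Most steps are catalysed by a muscle isoenzyme together with isoenzymes that prevail in other cells, so the levels of the paired genes also reflect the mixture of fibres and other cells in the tissue.

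Libraries held 35042245 to 43733641 gene-assigned read pairs. Dysf stood at 72.3, 99.9 and 145 CPM in the controls against 15.8, 14.7 and 20.3 CPM in the mutants (log2 fold change -2.64, SE 0.28, edgeR adjusted p = 0.0249), in the direction of the labels, and this call was lost without any 1 of the mutants and with sex as a covariate. Muscle identity markers (8 genes, among them Ckm and Acta1) summed to 60986 to 69676 CPM in controls and 55511 to 75951 CPM in mutants, and the summed CPM of 12 slow-fibre markers varied within both groups, from 1248 to 6045 in controls and from 2024 to 6762 in mutants. Control 2 stood apart through genes of immature or denervated muscle, with Sln, a regulator of the calcium pump, at 678 CPM against at most 14.6 elsewhere, and Chrng, the embryonic acetylcholine receptor subunit, at 20.1 CPM against at most 0.749. The control libraries also held 2.37 to 3.44 CPM of H2-Ea-ps and 1.02 to 7.69 CPM of Ifi202b, both known to be silent in C57BL/6J mice, and the labels give the controls as C57BL/6 with no substrain. The mutant libraries together held 1 read pair of H2-Ea-ps and 0 of Ifi202b, a count that allows up to 0.0856 CPM in the shallowest library. Why the controls held these reads was not tested. By the labels all mutants were BLAJ and all controls C57BL/6, so strain background and genotype cannot be told apart in any comparison below. Both females were mutants, and in several comparisons sex cannot be told apart from them either.

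For most of the 39 genes the difference between mutant and control muscle was small, and 1 gene departed from this pattern. Ppp1r3c, which encodes the glycogen-targeting subunit PTG of protein phosphatase 1, stood in the mutants at 0.403 times its level in the controls. Pfkl, the liver-type phosphofructokinase, and Gpd2, the mitochondrial glycerol 3-phosphate dehydrogenase, stood 1.48-fold and 1.43-fold higher. By edgeR's quasi-likelihood test with Benjamini-Hochberg adjustment over all 15589 genes tested, 0 of the 39 genes passed an adjusted p of 0.05, where 0.199% of all genes did (31 genes, which became 6 without mutant 2, 7 without mutant 1 and 49 without control 2). At an unadjusted p below 0.05 there were 3 of 39 (7.69%), against 6.94% of all genes. The groups did not overlap in 3 of 39 (7.69%), the same 3 genes, against 12.1% of all genes. DESeq2 on the same genes passed Ppp1r3c alone among the 39, where 1.18% of all genes passed. The authors' deposited table also passed Ppp1r3c alone among the 39, against 1.19% of all genes in it. Counts of the set near these background shares say nothing particular about the set.

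The direction was higher in 23 genes and lower in 16, with a median log2 fold change of 0.02 over the 39 and of -0.00 over all genes tested. An absolute log2 fold change under 0.25 was found for 30 genes, and one above 0.5 for 5. The 95% interval of the fold change lay within 1 log2 unit of 0 in 33 of the 39, and for these a difference of 2-fold or more in either direction lay outside the interval. With sex as a covariate, the sign turned by more than 1 standard error in 10 genes whose fold changes were small (Hk1, Gpi1, Pfkm, Pfkp, Pgk1, Pgam2, Pdha1, Gyg, Phka1 and Ppp1r3a), and no direction is drawn for them. Because all controls were male, the group difference in that fit rests on the male mutant alone against the controls. In data simulated from these libraries, the test recovered 9 of 100 genes changed 2-fold and 72 of 100 changed 4-fold.

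**Figure D1:**
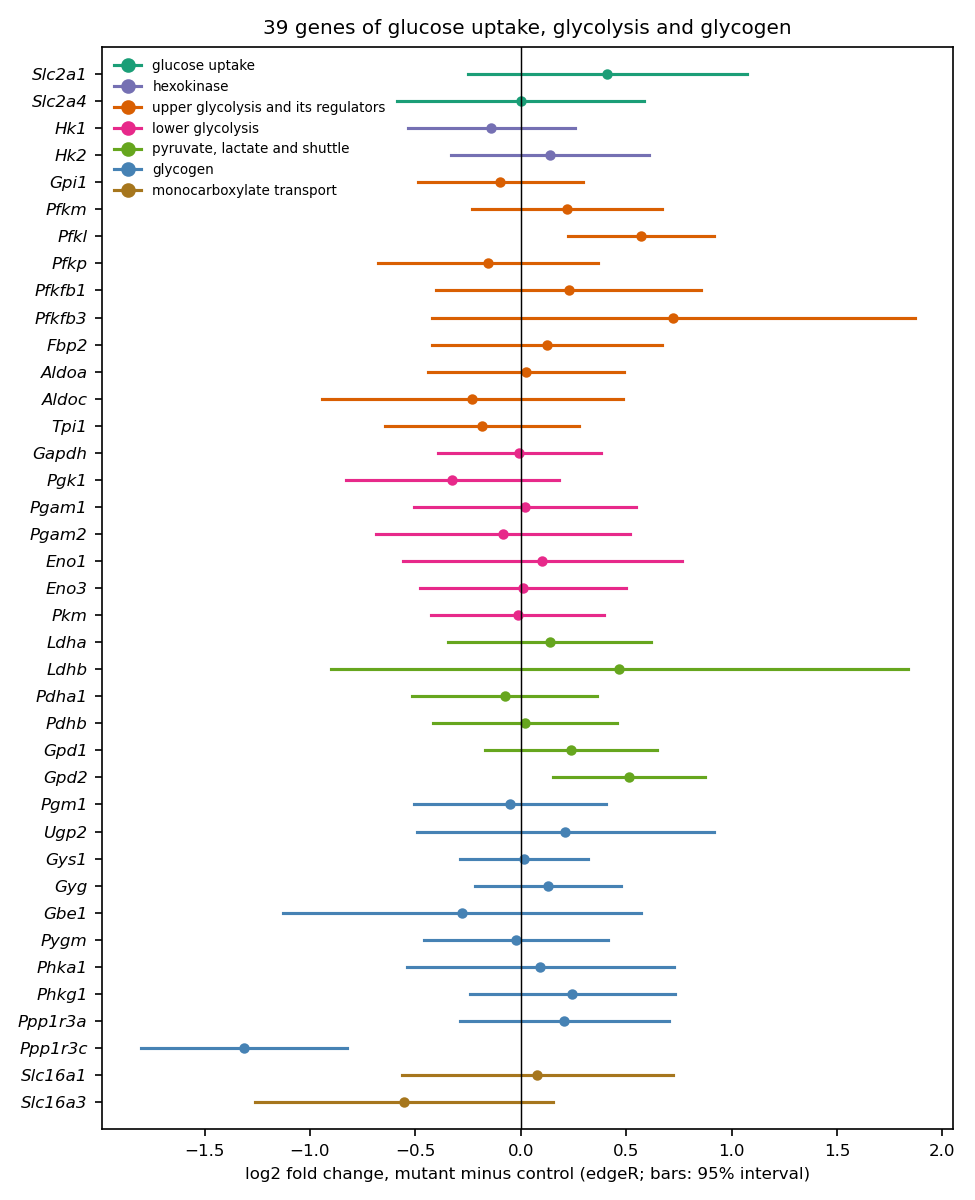
Log2 fold change, mutant minus control, of the 39 genes with the 95% interval from edgeR, coloured by role. The interval excludes 0 for Ppp1r3c (-1.80 to -0.82), Pfkl (0.22 to 0.92) and Gpd2 (0.15 to 0.88), and after adjustment over all genes none of them passed the threshold.

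Together the 39 genes held 5.99%, 5.29% and 6.36% of gene counts in the controls and 6.22%, 6.37% and 5.70% in the mutants, which is 5.88% ± 0.542 against 6.10% ± 0.354 (SD, n = 3 each; 2-sided exact permutation p = 0.6, where the smallest possible p is 0.1). Control 2 held the lowest share, and the ranges overlapped. Scaled to exonic length, Aldoa was the most abundant in the controls at 5380 CPM per kb, followed by Eno3 at 3855, Pgam2 at 2298, Pygm at 2158 and Gapdh at 1415 CPM per kb. The least abundant were Pfkl at 1.54, Pfkp at 0.599 and Aldoc at 0.471 CPM per kb. Of the 5 most abundant, Aldoa, Eno3, Pgam2 and Pygm are muscle forms. Variation between single animals was wide for some genes: the highest library exceeded the lowest more than 2-fold in 8 genes, and by a median of 1.65-fold over the 39. Control 2 was the lowest of the 6 libraries in 15 genes and control 3 the highest in 12, and both are control animals. Without control 2 the median log2 fold change of the 39 was -0.02.

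**Figure D2:**
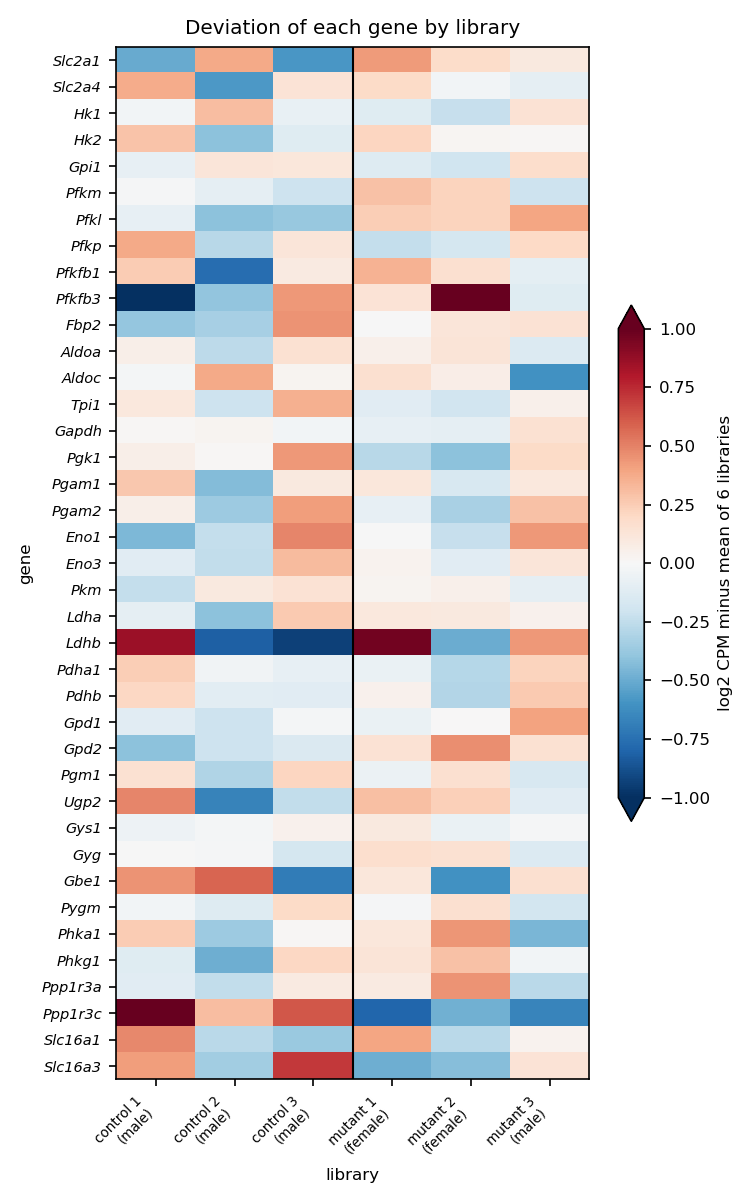
Log2 CPM of each gene minus its mean over the 6 libraries, with controls left of the line and mutants right of it (red above the mean, blue below; differences beyond 1 take the end colour). Ppp1r3c is red in all controls and blue in all mutants, whereas Pfkfb3 and Ldhb vary within both groups, by 4.98-fold and 3.71-fold between the extreme libraries.

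Glycogen regulation held the largest difference. Ppp1r3c (ENSMUSG00000067279, chromosome 19) encodes a scaffold that brings protein phosphatase 1 to glycogen, where the phosphatase activates glycogen synthase and inactivates phosphorylase. It stood at 672, 415 and 516 CPM in the controls against 193, 241 and 212 CPM in the mutants. Every mutant lay below every control, and the mutants of both sexes lay close together. The means were 534 ± 129 and 215 ± 24.1 CPM (SD, n = 3 each). The log2 fold change was -1.31, with SE 0.21, a 95% interval from -1.80 to -0.82 and an edgeR adjusted p of 0.128. The call depended on the test: the DESeq2 adjusted p was 4.15e-06 (log2 fold change -1.32), and the adjusted p in the authors' deposited table was 1.10e-05. Without the filter on low counts the edgeR adjusted p was 0.000657, and without control 2 it was 0.0492 (log2 fold change -1.47). With sex as a covariate the log2 fold change was -1.34 by edgeR and -1.35 by DESeq2. Because all controls were male, the group difference in these fits rests on the male mutant alone against the controls. The log2 fold change was negative in 17 of 17 alternative analyses, between -1.47 and -1.12, and it was called in 4 of them.

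**Figure D3:**
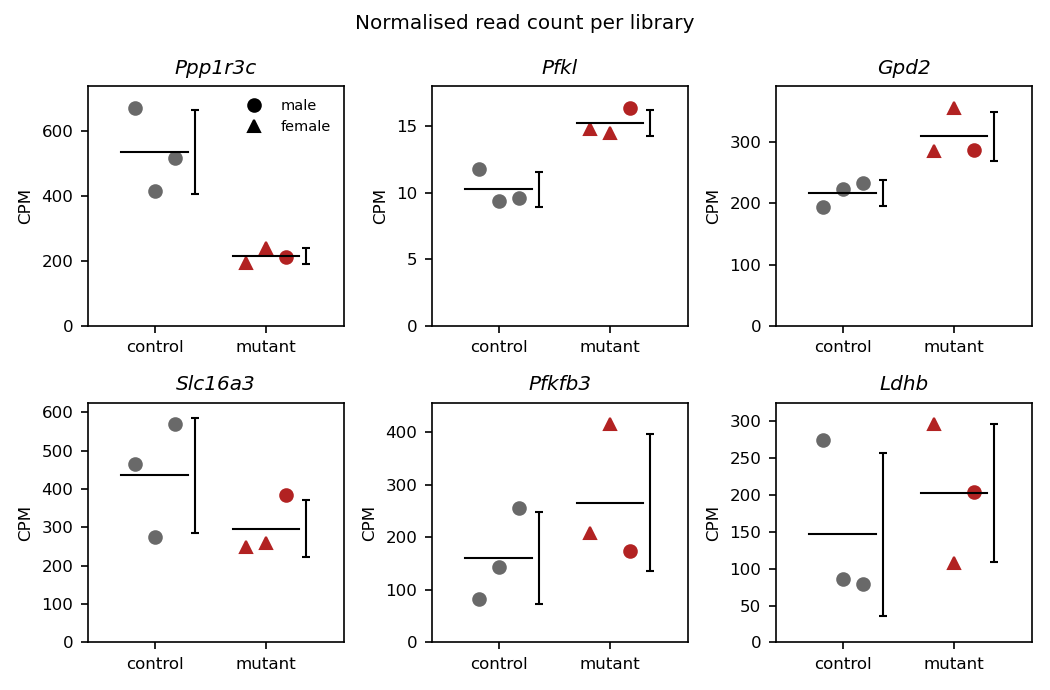
CPM in each library for 6 genes, with circles for males, triangles for females, lines at the group means and bars of 1 SD (n = 3 each). Mutants and controls are separate for Ppp1r3c (highest mutant 241, lowest control 415), Pfkl and Gpd2, and overlap for Slc16a3, Pfkfb3 and Ldhb.

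Promoter sequences of genes in the set (250 bases before to 50 bases after an annotated start, from RefSeq on GRCm38.p6) were matched for 37 of the 39 genes, in 54 entries. They were searched on both strands for ACGTG, the core letters bound by hypoxia-inducible factors and, as part of CACGTG, by E-box factors such as USF and the carbohydrate-responsive MLX proteins, and for GGGCGG, the GC box. CACGTG is a palindrome and holds an ACGTG match on each strand. ACGTG was present in 46.3% of the 54 promoters and in 19.6% of all 32851 promoters of the same length, CACGTG in 13.0% and 7.15%, and GGGCGG in 53.7% and 35.7%. The median GC content was 60.3% in the 54 promoters and 52.7% in all, and its part in these shares was not tested. Shown are the 250 bases before the start for 2 of the genes whose groups did not overlap, because both hold the ACGTG core. The first lies at chr19:36736605-36736854 on the minus strand and the second, the downstream of 2 annotated Gpd2 starts, at chr2:57238132-57238381 on the plus strand (GRCm38.p6, 5′ to 3′). Capitals mark ACGTG or GGGCGG on either strand.
Ppp1r3c: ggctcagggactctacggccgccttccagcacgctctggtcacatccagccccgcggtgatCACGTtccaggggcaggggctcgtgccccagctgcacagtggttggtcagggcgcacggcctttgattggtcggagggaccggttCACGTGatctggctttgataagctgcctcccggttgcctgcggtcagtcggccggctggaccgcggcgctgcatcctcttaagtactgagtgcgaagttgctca
Gpd2: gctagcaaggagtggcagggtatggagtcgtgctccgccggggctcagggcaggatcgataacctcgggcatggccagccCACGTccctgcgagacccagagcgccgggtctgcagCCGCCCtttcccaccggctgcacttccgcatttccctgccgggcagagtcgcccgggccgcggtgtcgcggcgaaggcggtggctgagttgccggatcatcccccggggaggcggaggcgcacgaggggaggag
In Ppp1r3c the palindrome CACGTG begins 104 bases before the start, and a further ACGTG match lies upstream of it on the opposite strand. The upstream Gpd2 start and the Pfkl promoter held 0 matches to ACGTG, and the Pfkl promoter held 3 to GGGCGG. A match of letters is a description of the sequence, and no binding was measured.

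The other phosphatase-targeting subunit in the set did not show the difference seen for Ppp1r3c. Ppp1r3a, which encodes the muscle subunit G-M, stood at 381, 348 and 438 CPM in the controls against 440, 564 and 342 CPM in the mutants, with overlapping groups (log2 fold change 0.21, SE 0.21). Gys1, muscle glycogen synthase and the main target of these phosphatase complexes, was the steadiest gene of the set. It stood at 382, 389 and 407 CPM in the controls against 422, 376 and 392 CPM in the mutants (log2 fold change 0.02, SE 0.13, 95% interval -0.29 to 0.32). Gyg, the glycogenin primer on which synthesis starts, stood at 314, 313 and 278 CPM in the controls against 354, 350 and 286 CPM in the mutants. Gbe1, the branching enzyme, varied more, at 89.8, 98.6 and 40.6 CPM in the controls against 71.3, 43.4 and 73.8 CPM in the mutants. In both genes the groups overlapped.

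Among the 39 genes, those of glycogen breakdown gave overlapping groups. Pygm, muscle glycogen phosphorylase, stood at 6713, 6282 and 7834 CPM in the controls against 6797, 7652 and 6043 CPM in the mutants (log2 fold change -0.02, SE 0.19). Its activating kinase is represented by the regulatory subunit Phka1, at 1257, 817 and 1060 CPM in controls against 1139, 1433 and 769 CPM in mutants, and by the catalytic subunit Phkg1, at 406, 314 and 510 CPM in controls against 483, 541 and 434 CPM in mutants. A further subunit, Phkb, stood at 731, 604 and 854 CPM in the controls against 505, 617 and 453 CPM in the mutants, and mutant 2 lay above control 2 (log2 fold change -0.47, SE 0.19, edgeR adjusted p = 0.701). Phka1, which is on the X chromosome, was highest in female mutant 2 and lowest in male mutant 3, so that the mutants spanned the control range. Pgm1, which interconverts glucose 1- and 6-phosphate, averaged 1318 ± 241 CPM in controls against 1272 ± 146 CPM in mutants (SD, n = 3 each). Ugp2, which forms UDP-glucose, ranged from 453 CPM in control 2 to 1006 CPM in control 1, and the mutants lay between them at 885, 846 and 663 CPM. The groups overlapped for all of these.

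Glucose uptake and phosphorylation showed no separation of the groups. Slc2a4, which encodes the insulin- and contraction-responsive transporter GLUT4, stood at 657, 341 and 559 CPM in the controls against 581, 499 and 477 CPM in the mutants, with the same mean of 519 CPM in both (SD 162 and 54.7, n = 3 each). Control 2 was the lowest library for GLUT4. Slc2a1, the transporter GLUT1 of most non-muscle cells, stood at 5.64, 10.4 and 5.34 CPM in the controls against 10.8, 9.10 and 8.58 CPM in the mutants, and here control 2 lay within the mutant range (log2 fold change 0.41, SE 0.28, edgeR adjusted p = 0.837). Hk2, the insulin-regulated muscle hexokinase, stood at 382, 235.4 and 288 CPM in the controls against 364, 317 and 315 CPM in the mutants. Hk1, the hexokinase of most other tissues, stood at 14.1, 17.8 and 13.7 CPM in the controls against 13.2, 12.3 and 15.9 CPM in the mutants. For Slc2a4, Hk2 and Hk1 the library of control 2 was the extreme of the control group, low for the muscle forms and high for Hk1.

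At the phosphofructokinase step, the committed step of glycolysis, the minor liver isoform stood apart. Pfkl stood at 11.8, 9.40 and 9.61 CPM in the controls against 14.8, 14.5 and 16.4 CPM in the mutants. All mutants lay above all controls, with the male mutant the highest. The means were 10.3 ± 1.32 and 15.2 ± 1.01 CPM (SD, n = 3 each). The log2 fold change was 0.57 (SE 0.15, edgeR adjusted p = 0.496), and the adjusted p in the authors' deposited table was 0.161. The muscle isoform Pfkm was far more abundant, with 982 CPM per kb of exon in controls against 1.54 for Pfkl. It stood at 3491, 3296 and 3053 CPM in the controls against 4310, 4110 and 3043 CPM in the mutants. The 2 female mutants were above all controls and the male mutant just below them (log2 fold change 0.22, SE 0.19). Pfkp, the platelet isoform, stood at 6.19 to 9.74 CPM in controls against 6.34 to 8.60 CPM in mutants. Of its strand-assigned pairs 30.6% to 47.6% came from the strand opposite to the gene, against at most 2.06% in the other 38 genes. Strand-matched counting gave 0.959 to 0.996 times the pairs behind these CPM values, so its levels were nearly the same either way.

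The regulators of fructose bisphosphate were variable. Pfkfb3, which makes the phosphofructokinase activator fructose 2,6-bisphosphate, had the widest range of the set, at 83.3, 144 and 256 CPM in the controls against 209, 415 and 174 CPM in the mutants. Female mutant 2 was highest and control 1 lowest, and the groups overlapped (log2 fold change 0.72, SE 0.48, 95% interval -0.42 to 1.87, edgeR adjusted p = 0.836). Pfkfb1, another kinase and phosphatase of this metabolite, stood at 47.4, 23.4 and 42.2 CPM in the controls against 50.6, 44.5 and 37.2 CPM in the mutants. Fbp2, the muscle fructose bisphosphatase, stood at 43.0, 44.7 and 76.8 CPM in the controls against 56.1, 61.2 and 62.0 CPM in the mutants, which lay inside the control range.

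The isomerases and aldolases between glucose 6-phosphate and glyceraldehyde 3-phosphate gave overlapping groups. Gpi1, the isomerase, averaged 982 ± 75.7 CPM in controls against 917 ± 131 CPM in mutants (SD, n = 3 each). Aldoa, muscle aldolase, stood at 16413, 13107 and 17467 CPM in the controls against 16325, 17202 and 14333 CPM in the mutants (log2 fold change 0.03, SE 0.20). Aldoc, the brain isoform, was the least abundant gene of the set, at 0.916 to 1.81 CPM over the 6 libraries. Tpi1, triose phosphate isomerase, ranged from 2194 to 3233 CPM in controls and from 2211 to 2624 CPM in mutants (log2 fold change -0.19, SE 0.20). None of these 4 genes had an interval that excluded 0.

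In lower glycolysis, Gapdh, which is often used as a reference gene, stood at 5868, 5946 and 5726 CPM in the controls against 5512, 5483 and 6457 CPM in the mutants (log2 fold change -0.01, SE 0.16, 95% interval -0.39 to 0.38). The controls lay inside the mutant range. Pgk1, the X-linked phosphoglycerate kinase, stood at 858, 834 and 1113 CPM in the controls against 680, 620 and 940 CPM in the mutants (log2 fold change -0.32, SE 0.22, edgeR adjusted p = 0.834). The female mutants held the lowest values, and the male mutant lay among the controls. Pgam2, muscle phosphoglycerate mutase, stood at 1908, 1426 and 2456 CPM in the controls against 1736, 1467 and 2254 CPM in the mutants, and its non-muscle partner Pgam1 at 4.40 to 7.14 and 5.32 to 6.42 CPM. Eno3, muscle enolase, stood at 6179, 5616 and 8318 CPM in the controls against 6821, 6178 and 7263 CPM in the mutants, and Eno1, the ubiquitous enolase, at 55.7 to 106 and 64.8 to 102 CPM. Pkm, pyruvate kinase, stood at 2745 to 3567 CPM in controls against 3042 to 3352 CPM in mutants. The groups overlapped in all 7 genes of this stretch, and their median log2 fold change was -0.01.

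Pyruvate, lactate and shuttle genes held the other gene that stood higher in all mutants. Gpd2 is the mitochondrial enzyme of the glycerol phosphate shuttle, which passes electrons from cytosolic NADH to the respiratory chain. It stood at 194, 223 and 233 CPM in the controls against 285, 355 and 287 CPM in the mutants, so that every mutant exceeded every control. The means were 217 ± 20.6 and 309 ± 40.0 CPM (SD, n = 3 each). The log2 fold change was 0.51 (SE 0.15, edgeR adjusted p = 0.557), with an adjusted p of 0.260 in the authors' deposited table. Gpd1, the cytosolic enzyme of the shuttle, stood at 512, 480 and 548 CPM in the controls against 531, 555 and 733 CPM in the mutants, with the male mutant highest and the groups overlapping (log2 fold change 0.24, SE 0.17). Ldha, the lactate dehydrogenase subunit of fast muscle, stood at 2733, 2193 and 3490 CPM in the controls against, closer together, 3128, 3122 and 2999 CPM in the mutants. The 2 pyruvate dehydrogenase subunits, which commit pyruvate to oxidation, were level: Pdha1 averaged 644 ± 82.3 CPM in controls against 611 ± 109 CPM in mutants, and Pdhb 290 ± 37.6 and 294 ± 55.9 CPM (SD, n = 3 each). The 6 genes of this role summed to 0.475%, 0.389% and 0.499% of counts in the controls and 0.526%, 0.506% and 0.518% in the mutants (2-sided exact permutation p = 0.1, the smallest possible). The groups were separated by the small gap from 0.499% in control 3 to 0.506% in mutant 2. It was the only 1 of the 7 role sums whose groups were separate, and no adjustment over the 7 was made.

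Ldhb, the lactate dehydrogenase subunit of heart and slow fibres, varied between animals of the same group. It stood at 274, 85.9 and 79.6 CPM in the controls against 296, 107 and 205 CPM in the mutants (log2 fold change 0.47, SE 0.57, edgeR adjusted p = 0.927). Control 1, mutant 1 and mutant 3 were high. The same 3 libraries held the highest sums of the 12 slow-fibre markers, at 6045, 6762 and 4974 CPM, whereas control 2, control 3 and mutant 2 held 4001, 1248 and 2024 CPM. Of the 12 markers 11 stood higher on average in the mutants, and 0 of 12 passed the adjusted p of edgeR or DESeq2 or had an unadjusted edgeR p below 0.05. The part of fibre composition in the values of Ldhb was not tested. In bulk tissue, fewer fibres of a type and less RNA per fibre cannot be told apart.

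Lactate leaves fast fibres through the monocarboxylate transporter MCT4 and enters oxidative fibres through MCT1. Slc16a3, which encodes MCT4, stood at 464, 274 and 569 CPM in the controls against 249, 259 and 383 CPM in the mutants. The female mutants lay below all controls, and the male mutant lay between control 2 and control 1 (log2 fold change -0.55, SE 0.30, 95% interval -1.26 to 0.15, edgeR adjusted p = 0.799). Slc16a1, which encodes MCT1, stood at 59.3, 35.1 and 32.7 CPM in the controls against 55.6, 35.1 and 43.5 CPM in the mutants. Its 2 highest libraries, control 1 and mutant 1, were also the 2 highest for Ldhb.

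Ratios within a library compare 2 genes of 1 reaction without the scaling between libraries, and 10 such ratios per exonic length were compared. In the controls, muscle forms prevailed by geometric means of 641-fold for Pfkm over Pfkl, 761-fold for Pgam2 over Pgam1, 282-fold for Eno3 over Eno1, 74.3-fold for Slc2a4 over Slc2a1, 28.0-fold for Hk2 over Hk1, 10.6-fold for Ldha over Ldhb and 8.49-fold for Slc16a3 over Slc16a1. Pgam1 and Eno1 have close copies, and Pgam1-ps2 matches Pgam1 at 100% of 765 aligned bases. Pairs that fit both gene and copy may be missing from the counts of Pgam1 and Eno1. The 761-fold and 282-fold values may therefore be too high, which was not tested. The log2 ratio of Pfkl to Pfkm was the only one whose groups did not overlap, at -9.21, -9.45 and -9.31 in controls and -9.18, -9.14 and -8.54 in mutants. The lowest mutant exceeded the highest control by a small margin, and the mean difference of 0.37 was 0.16 without the male mutant and 0.79 with males only. Its 2-sided exact permutation p was 0.1, the smallest possible, and the adjusted p over the 10 ratios was 0.7 for each of them. The log2 ratio of Ldhb to Ldha ran from -4.38 to -2.24 in controls and from -3.78 to -2.33 in mutants.

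**Figure D4:**
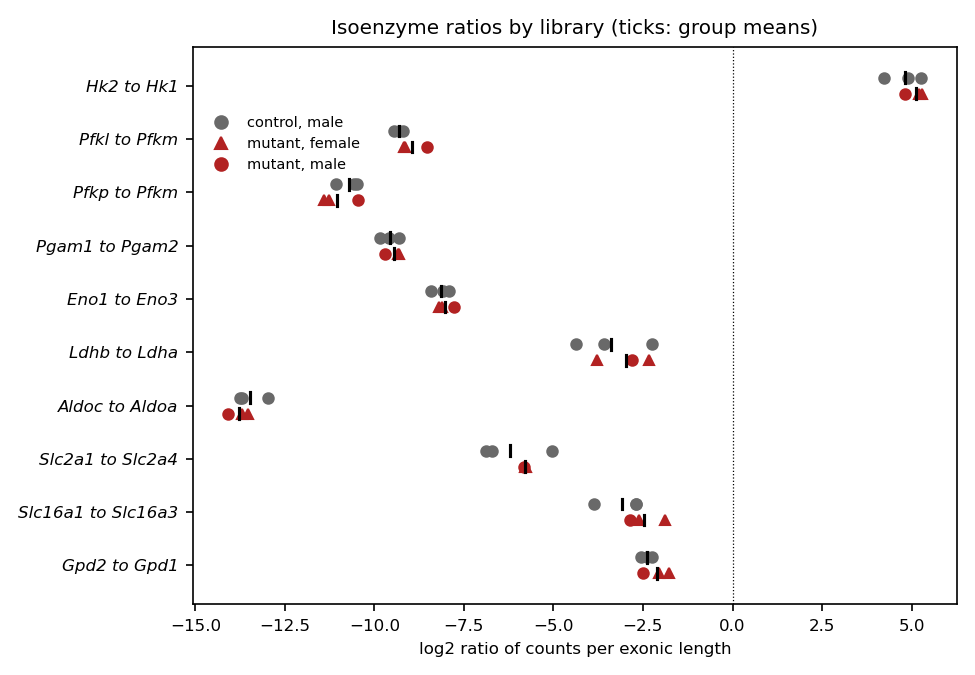
Log2 ratio of 2 genes of the same step in each library, from counts per exonic length, with ticks at the group means. Groups overlap in 9 of the 10 ratios, and the ratio of Ldhb to Ldha runs from -4.38 to -2.24 in controls and from -3.78 to -2.33 in mutants.

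Because a read pair can fit a near-identical copy as well as its parent gene, pseudogenes and retrogenes of the set were followed as well. The search listed 187 copies of 13 of the genes, all with a count except Pgk2, a copy of Pgk1. Of these, 61 copies were tested, and 0 passed the edgeR adjusted p of 0.05 or DESeq2's. An unadjusted edgeR p below 0.05 was found for 3 (4.92%), against 6.94% of all genes. These were Gm13394 and Tpi-rs11, lower in the mutants, and Gm5345, a copy of Gapdh, higher in the mutants. Gm5345 averaged 0.924 CPM and had a log2 fold change of 2.31. Groups did not overlap in 7 of the 61 (11.5%), against 12.1% of all genes. Of 23 copies that averaged at least 1 CPM, most stood within a narrow band across libraries, such as Gm6560, a copy of Pkm, at 7.36 to 11.7 CPM. Several copies varied between libraries in ways their parents did not. Gm13394, which matches Gapdh at 99.9% of aligned bases, stood at 291 CPM in control 3 and at 0.386 to 0.906 CPM in the other 5 libraries, while Gapdh itself was at 5726 CPM in control 3 and 5483 to 6457 CPM in the others. Eno1b, a close copy of Eno1, stood at 10.1, 11.4 and 8.95 CPM in the controls against 9.57 CPM in male mutant 3, but at 0.238 and 0.0551 CPM in female mutants 1 and 2. Eno1 itself showed no such split, with 75.9 and 64.8 CPM in those 2 mutants. Gm9522, another copy of Gapdh, stood at 4.02, 2.58 and 0.102 CPM in the controls against 0.0264, 0 and 0.942 CPM in the mutants. Gm5514, a copy of Ldhb, was highest at 3.31 CPM in control 3, where Ldhb was lowest at 79.6 CPM. Whether these reads came from the copy or from a sequence variant of the parent was not tested. Tpi-rs11, a copy of Tpi1, stood at 1.62, 1.52 and 2.03 CPM in the controls against 0.978, 0.937 and 1.20 CPM in the mutants, with all mutants below all controls (log2 fold change -0.73, edgeR adjusted p = 0.656).

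**Figure D5:**
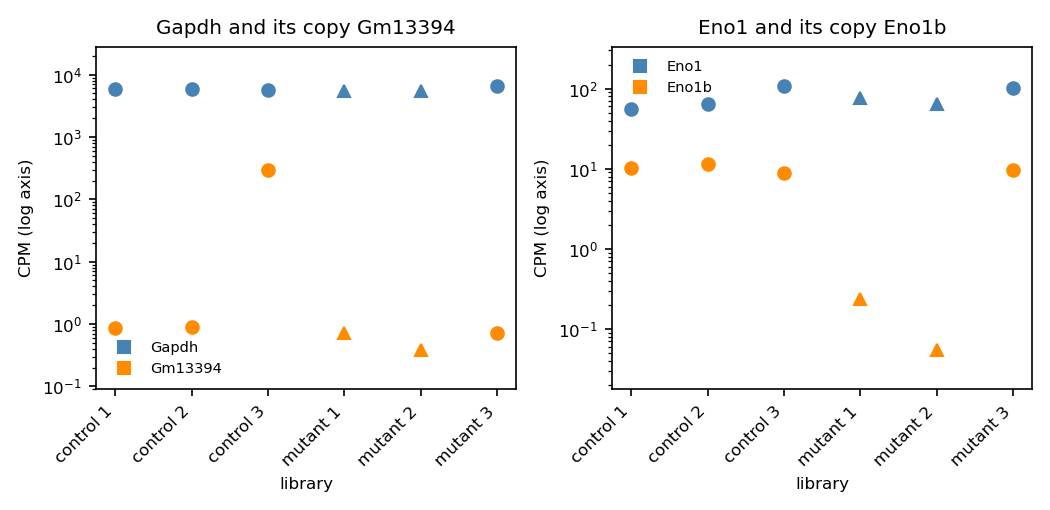
CPM on a log axis in each library for Gapdh and Eno1 and for 1 copy of each, with circles for males and triangles for females. Gm13394 is at 291 CPM only in control 3, and Eno1b is below 1 CPM only in female mutants 1 and 2. Gapdh ranges from 5483 to 6457 CPM and Eno1 from 55.7 to 106 CPM.

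Beyond the 39 genes, 7 lists covered 137 further genes of the pathway and its regulators, of which 127 were tested. By the adjusted p of edgeR or of DESeq2, 0 of 127 passed, while by edgeR 11 (8.66%) had an unadjusted p below 0.05 (7 higher, 4 lower), against 6.94% of all genes. Groups did not overlap in 13 of the 127 (10.2%), against 12.1% of all genes. Of the 127, 69 were higher and 58 lower with a median log2 fold change of 0.03. In glucose uptake and insulin signalling, 0 of 19 passed, 8 were higher and 11 lower. Tbc1d4, the Akt substrate AS160 that holds back GLUT4 vesicles until insulin acts, averaged 41.2 ± 5.52 CPM in controls against 72.5 ± 19.8 CPM in mutants without overlap (log2 fold change 0.82, SE 0.22, edgeR adjusted p = 0.496). Among further glycolytic genes, 0 of 12 passed.

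Further glycogen genes included several beside Ppp1r3c in the same functions, of which 0 of 25 passed, with 10 higher and 15 lower. Stbd1, which tethers glycogen to membranes for its lysosomal breakdown, stood at 151, 157 and 154 CPM in the controls against 93.0, 91.1 and 126 CPM in the mutants, all below the controls (log2 fold change -0.58, SE 0.16, edgeR adjusted p = 0.512). Nhlrc1, the ubiquitin ligase malin, which is known to target PTG for degradation, averaged 13.6 ± 4.34 CPM in controls against 8.60 ± 1.02 CPM in mutants (log2 fold change -0.66, edgeR adjusted p = 0.675), with a gap of 9.54 against 9.56 CPM between the groups. Ppp1r3e, another phosphatase-targeting subunit, stood the other way, at 1.30 ± 0.516 and 3.16 ± 0.356 CPM (log2 fold change 1.27, SE 0.35, edgeR adjusted p = 0.512), and its groups did not overlap either. These 3 genes did not pass DESeq2's adjusted p, unlike Ppp1r3c.

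The remaining lists were as follows. Of the AMP-activated kinase genes 0 of 9 passed, with absolute log2 fold changes of at most 0.17, and of the pentose phosphate genes 0 of 8 passed, with 0.25 at most. Of further pyruvate, lactate and shuttle genes 0 of 27 passed, with 19 higher and 8 lower. Pdk4, the kinase that shuts off pyruvate dehydrogenase in fasting, stood at 415, 89.7 and 275 CPM in the controls against 685, 281 and 640 CPM in the mutants, with overlap (log2 fold change 1.04, SE 0.58, edgeR adjusted p = 0.805). Pdp2, the phosphatase that switches pyruvate dehydrogenase on again, averaged 5.11 ± 2.11 and 9.41 ± 1.57 CPM without overlap (log2 fold change 0.88, edgeR adjusted p = 0.653). Of transcription regulators 0 of 27 passed, with 17 higher and 10 lower. Among them Mlxipl, the glucose-responsive factor ChREBP, averaged 50.4 ± 5.32 and 67.7 ± 10.5 CPM, and Nr4a1, an orphan receptor induced by contraction, 124 ± 60.8 and 224 ± 11.8 CPM (controls and mutants, SD, n = 3 each). Neither gene overlapped between the groups, and their edgeR adjusted p-values were 0.661 and 0.701. Ppargc1b, a coactivator of oxidative metabolism, averaged 6.62 and 12.1 CPM with overlapping groups (log2 fold change 0.87, edgeR adjusted p = 0.695).

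Summed markers of other cells overlapped between the groups, while 4 single markers did not. These were 1 of 7 red blood cell, 2 of 10 endothelial and 1 of 8 adipocyte markers. Among macrophage markers there were 0 of 10 and among Schwann and nerve markers 0 of 8, and the share over all genes was 12.1%. Summed CPM ran from 772 to 2068 in controls and from 1368 to 2028 in mutants for 7 red blood cell markers, from 354 to 409 and from 377 to 515 for 10 endothelial markers, from 115 to 181 and from 135 to 226 for 10 macrophage markers, from 163 to 328 and from 252 to 453 for 8 adipocyte markers, and from 120 to 400 and from 139 to 553 for 8 Schwann and nerve markers. No marker of these lists was at 0 in all libraries. Red blood cell markers were higher in 7 of 7, adipocyte markers in 8 of 8 and endothelial markers in 9 of 10. Macrophage markers were higher in 8 of 10 and Schwann and nerve markers in 6 of 8. By edgeR, 0 markers of any of these lists passed the adjusted p. An unadjusted edgeR p below 0.05 was found for 1 red blood cell, 1 adipocyte and 1 endothelial marker and for 0 in the other lists. The share over all genes was 6.94%. DESeq2's adjusted p passed 1 red blood cell marker and 0 in the other lists. That marker was Hba-a2, an alpha globin gene whose reads can also fit its close copy Hba-a1. It stood at 24.2 to 50.8 CPM in controls against 79.2 to 130 CPM in mutants (log2 fold change 1.31, SE 0.31, edgeR adjusted p = 0.424). All mutants also lay above all controls in the endothelial markers Vwf and Egfl7 and in the adipocyte marker Fabp4. Pfkl and Slc2a1 are expressed in such cells as well as in fibres, and the part of these cells in their values was not tested.

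The deposited matrix ignored strand, and this lowered some levels. Strand-matched counting gave 1.51 to 1.55 times as many pairs for Gpd1, 1.46 to 1.56 times for Pdha1, 1.28 to 1.36 times for Phkg1, 1.17 to 1.19 times for Aldoa and 1.12 to 1.18 times for Slc2a1, in every library alike. The fold changes hardly moved, with a log2 fold change of 0.22 in place of 0.24 for Gpd1 and -1.31 in both for Ppp1r3c. A second gene ID with the symbol Aldoa (ENSMUSG00000114515) drew 99.0% to 99.6% of its pairs from the opposite strand, stood at 45.1 to 129 CPM and was left out. On chromosome 6, which carries Dysf, Hk2 was the nearest of 5 genes of the set, with 37 protein-coding genes between it and Dysf in the GENCODE M21 order, and none of the 5 (Hk2, Tpi1, Gapdh, Ppp1r3a and Ldhb) had groups that were separate.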

How the data were processed

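RNA of 6 gastrocnemius muscles was sequenced in strand-specific poly(A) libraries with 61 bp paired ends (labels' protocols). The authors deposited raw counts per gene, as a matrix and per library with counts for each strand. The matrix equalled the unstranded column in every gene. From a differential expression table, also made by the authors, the deposited log2 fold changes and adjusted p-values were used. Per the submitters' processing notes, the build was GRCm39 and the tools included STAR 2.7.11b (alignment program) and DESeq2 1.50.2. No annotation release was given in the sources used here. Pairs not assigned to a single gene (18.5% to 22.3%) were left out. Among them were pairs ambiguous between genes, at 6.93% to 7.49% of all pairs in unstranded counting.

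The counts were tested with edgeR 4.0.16 (R 4.3.3; TMM, default filter, robust quasi-likelihood test, no covariate, Benjamini-Hochberg over 15589 genes, threshold 0.05). DESeq2 1.42.0 and limma 3.58.1 were alternatives. CPM use TMM-scaled library sizes; 3 counts in 1 library equal 0.0686 to 0.0856 CPM before that scaling. SD and SE are over 3 animals a group. The fit was tested on simulated data. The 39 genes and all lists were chosen with earlier results of these data known. All 39 are named, with up to 3 genes of each other pathway list by smallest p. Of the 23 copies averaging at least 1 CPM only some are named, chosen after their values were seen. Gm5345, Pdk4, Phkb and the strain and denervation genes were also chosen after their values were seen. Copies were assigned by blastn 2.17.0 or by name. Symbols matched 52029 of 57010 IDs. Exonic lengths and gene order came from GENCODE M21. Plots used matplotlib 3.10.9. No 2 libraries matched within sampling noise (chi-square per degree of freedom at least 54.6).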

Additional observations from a re-analysis of the deposited data

How the results depend on the processing

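Ppp1r3c was lower under all 17 alternatives, called in 4, and no other gene of the 39 was called in any of them. The count of called genes among the 39 was 1 in place of 0 without a filter on low counts, with DESeq2, and with DESeq2 and sex as a covariate (the last added after seeing the data), and ran from 0 to 1 when each library was left out in turn. Over all genes, the count of 31 became 79 without a filter, 184 with DESeq2, 0 with sex as a covariate in edgeR (882 at an unadjusted p below 0.05, 3 of them in the set), 0 with males only (594 and 2), 88 with DESeq2 and sex, and 6 to 49 when 1 library was left out, 6 without mutant 2, 7 without mutant 1 and 49 without control 2. Males only leaves 1 mutant, which is assumed to vary like the controls. With sex as a covariate the group difference also rests on that 1 mutant, because all controls were male, so these fits are not independent of males only. The replicate numbers do not pair the animals (correlations of deviations 0.17, -0.06 and 0.18 for numbers 1 to 3). With the replicate number as a block, 11 genes and 0 of the 39 were called, and Ppp1r3c had a log2 fold change of -1.29. Dysf lost its call with sex as a covariate (-2.38), with males only (-2.38) and without any 1 mutant, and ran from -2.86 to -2.35 when 1 library was left out. Signs differed from the main value in 96 of 663 values of the 39 genes, 67 by at most 1 SE. Those turned by more, given for sex as a covariate, males only, and DESeq2 with sex, were Hk1 (0.062, 0.065, 0.042), Gpi1 (0.12, 0.12, 0.10), Pfkm (-0.11, -0.11, -0.13), Pfkp (0.10, 0.10, 0.083), Pgam2 (0.22, 0.23, 0.21), Pdha1 (0.17, 0.18, 0.15), Gyg (-0.074, -0.072, -0.094), Phka1 (-0.44, -0.44, -0.46), Ppp1r3a (-0.19, -0.18, -0.21) and Pgk1 (0.0081 and 0.0098 in the first 2). With males only, the mean differences of log2 ratios were 0.79 for Pfkl to Pfkm, 0.23 for Pfkp to Pfkm, -0.13 for Pgam1 to Pgam2, 0.36 for Eno1 to Eno3 and -0.11 for Gpd2 to Gpd1. The cause of these differences was not tested. With 3 animals a group, differences under 4-fold often stay below the threshold.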
